A study of Mus musculus with 18 samples.

Results

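The transcription factor gene Nfe2l2, which encodes NRF2, 6 of the enzyme genes that NRF2 is known to control and 3 glutathione transferase genes were followed through 18 mouse RNA-seq libraries. The 10 genes, Nfe2l2, Nqo1, Hmox1, Gclc, Gclm, Txnrd1, Srxn1, Gsta4, Gstm1 and Gstt1, were taken by gene name, and the transcripts of each gene identifier were summed. They are 10 of 35310 genes listed in at least 1 of 3 tables, and all 10 were listed and tested in each table. Each table holds 3 libraries labelled sgNAT10, from cells that carry a CRISPR guide against Nat10, and 3 libraries labelled wild type (WT). The tables cover MCA205 cells in culture, TC1 cells in culture, and subcutaneous TC1 tumours taken on day 8 after implantation. The labels name no separate clones, cultures or animals behind the libraries of a group, so a p-value here speaks of library to library spread, and that spread may be technical. MCA205 is a mouse line raised from a carcinogen-induced fibrosarcoma. TC1 is usually described as a lung epithelial line carrying papillomavirus oncogenes, although the labels call it a fibrosarcoma line as well. NAT10 acetylates cytidine in RNA, and the tumours also hold cells of the host mouse.

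NRF2 is kept low in unstressed cells because the adaptor KEAP1 presents it to a CUL3 ubiquitin ligase for destruction. Electrophiles and oxidants modify KEAP1, NRF2 then accumulates, pairs with a small MAF protein and binds the antioxidant response element, a site that the repressor BACH1 can also occupy. Its targets make glutathione, reduce quinones and disulfides, and break down haem, while glutathione transferases couple glutathione to reactive compounds. Since NRF2 is set mainly by protein stability, the transcript of Nfe2l2 need not follow the activity of the protein.

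The core of the antioxidant response element, TGACNNNGC, was looked for on both strands of the RefSeq promoter windows of GRCm38.p6, which run from 250 bases before to 50 bases after a transcription start. Of the 10 genes, 7 had such a window and 4 had a match, Nfe2l2, Gclm, Txnrd1 and Srxn1, each with 1. Across the mouse genes with a window, 14.0% had a match. Gclm, Txnrd1 and Srxn1 are shown because they hold a match and were called lower in MCA205 cells and higher in TC1 cells. Gstm1 was called in the same directions and has no match in either of its windows, so that pattern was not limited to genes with a match. Gstt1 is shown as a gene without a match that fell in both MCA205 cells and tumours. The windows lie at chr3:122245307-122245606 (plus strand) for Gclm, chr10:82858956-82859255 (plus strand, window 2 of the 3 annotated starts) for Txnrd1, chr2:152105274-152105573 (plus strand) for Srxn1 and chr10:75797682-75797981 (minus strand) for Gstt1. Each is printed 5' to 3' along the gene, and capitals mark the match, which in these genes reads TGACNNNGC on the opposite strand.
Gclm: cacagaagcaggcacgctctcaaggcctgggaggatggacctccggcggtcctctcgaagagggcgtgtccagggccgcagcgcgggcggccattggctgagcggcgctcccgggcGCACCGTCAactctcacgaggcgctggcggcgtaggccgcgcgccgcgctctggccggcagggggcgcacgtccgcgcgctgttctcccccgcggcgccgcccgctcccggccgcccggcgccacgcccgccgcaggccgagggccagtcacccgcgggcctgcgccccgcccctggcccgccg
Txnrd1: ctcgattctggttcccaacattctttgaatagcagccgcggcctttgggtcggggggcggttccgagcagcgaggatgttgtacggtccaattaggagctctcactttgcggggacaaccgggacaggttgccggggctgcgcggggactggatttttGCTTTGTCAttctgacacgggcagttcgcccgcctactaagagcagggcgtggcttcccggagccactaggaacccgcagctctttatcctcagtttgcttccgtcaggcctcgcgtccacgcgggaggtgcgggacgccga
Srxn1: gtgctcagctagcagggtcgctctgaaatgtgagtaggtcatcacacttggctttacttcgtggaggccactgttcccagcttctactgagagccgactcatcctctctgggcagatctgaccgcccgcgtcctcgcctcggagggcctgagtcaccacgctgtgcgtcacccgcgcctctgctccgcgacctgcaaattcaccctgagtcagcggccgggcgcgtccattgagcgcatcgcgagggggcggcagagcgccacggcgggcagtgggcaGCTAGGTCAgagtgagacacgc
Gstt1: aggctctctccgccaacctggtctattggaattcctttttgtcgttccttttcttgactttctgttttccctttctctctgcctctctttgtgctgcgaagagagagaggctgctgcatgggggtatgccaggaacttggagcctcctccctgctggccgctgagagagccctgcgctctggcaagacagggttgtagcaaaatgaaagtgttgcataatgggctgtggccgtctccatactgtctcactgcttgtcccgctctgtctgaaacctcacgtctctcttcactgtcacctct
The centre of the match lay 130 bases before the start in Gclm, at position -130, at -88 in Txnrd1 and at +32 in Srxn1. In Nfe2l2 a match on the gene's own strand lay at -236. The windows also differed in CpG content, with 48 CpG dinucleotides in Gclm, 27 in Txnrd1, 26 in Srxn1 and 18 in Nfe2l2, against 14 and 8 in the windows of Gstm1, 8 in Gstt1, 5 in Nqo1, 3 and 12 in the other windows of Txnrd1, and a median of 7 over all windows. A match describes these letters only, and a window without one says nothing about binding elsewhere.

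Libraries held between 51661298 and 78501790 estimated counts. By edgeR, Nat10 itself passed the threshold in none of the tables. Its level was 13.2 to 13.6 FPKM in sgNAT10 and 12.5 to 14.2 FPKM in WT MCA205 cells, 11.7 to 14.2 against 13.9 to 15.9 FPKM in TC1 cells, and 12.3 to 16.3 against 14.8 to 16.2 FPKM in tumours (adjusted p = 0.984, 0.161 and 0.336). A guide can disable a gene without lowering its transcript, and the labels are therefore unchecked by these levels. All 8 liver markers and at least 7 of 8 intestine markers were detected in cultured cells of both lines, although neither tissue is named in the labels. Their summed level was 136, 1.54 and 158 FPKM in sgNAT10 and 4.56, 340 and 168 FPKM in WT MCA205 cells, and 936 to 1323 against 703 to 1527 FPKM in TC1 cells. In tumours it was 445 to 492 FPKM in sgNAT10 libraries and 2.51, 53.0 and 190 FPKM in WT libraries, and the groups did not overlap. A tumour fit with this level as a covariate therefore cannot separate it from sgNAT10, whether a call is kept or lost. Fibroblast markers, a check of the label fibrosarcoma, were present in both lines, with all 6 detected. They summed to 207 to 214 FPKM in sgNAT10 and 15.9 to 26.2 FPKM in WT MCA205 cells, and to 7.99 to 9.94 against 25.5 to 64.6 FPKM in TC1 cells, so that they moved in opposite directions in the lines. Fewer cells of a type and less RNA per cell cannot be told apart in such bulk samples.

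In MCA205 cells all 10 genes were called at an adjusted p under 0.05 by edgeR, 3 higher and 7 lower in sgNAT10. Nfe2l2, Nqo1 and Hmox1 rose, while both glutamate-cysteine ligase genes, Txnrd1, Srxn1 and the 3 transferase genes fell. Changes were widespread in this comparison, with 40.6% of all genes tested called, 21.2% higher and 19.4% lower. In TC1 cells 5 of the 10 rose in sgNAT10, Nqo1, Gclm, Txnrd1, Srxn1 and Gstm1, and the other 5 were not called, beside 37.9% of all genes called, 15.9% higher and 22% lower. This TC1 split, 2991 higher and 4135 lower, depended on the scaling. It was nearly even with RLE size factors (3389 higher, 3417 lower) or DESeq2 (3773 and 3831). More genes stayed lower than higher with library size alone (3352 higher, 3787 lower) or the replicate number as a block (2306 and 3399). Macrophage markers, all 9 detected, also separated in cultured TC1 cells, at 73.2 to 136 FPKM in sgNAT10 and 43.0 to 50.5 FPKM in WT, with Cd68 at 16.0 to 19.4 against 5.32 to 8.00 FPKM. In MCA205 cells their sums overlapped, but Cd68 stood at 13.2 to 16.8 against 3.57 to 8.30 FPKM, and the part of such cells in these changes was not tested. In tumours Gstm1 rose, Gclm and Gstt1 fell and the other 7 were not called, beside 17.4% of all genes called, 7.65% higher and 9.72% lower. That split, 1473 higher and 1870 lower, became 1505 higher and 1223 lower when libraries were scaled by size alone. The sgNAT10 and WT libraries of a table did not overlap in FPKM for 10, 5 and 4 of the genes in MCA205 cells, TC1 cells and tumours, where 52.6%, 50.8% and 40.4% of all genes tested did not overlap. The effect of sgNAT10 in MCA205 cells differed from that in TC1 cells for 7 of the 10 genes, 1 higher and 6 lower, beside 36% of all genes, 19.2% higher and 16.7% lower. The effect in tumours was lower than that in cultured TC1 cells for 5 of the 10, beside 28.2% of all genes that differed, 13.1% higher and 15.1% lower. Of the 10 genes, Nqo1 was called in the same direction in both lines, and no other was called the same way in more than 1 table except Gclm and Gstt1, lower in MCA205 cells and tumours, and Gstm1, higher in TC1 cells and tumours.

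**Figure D1:**
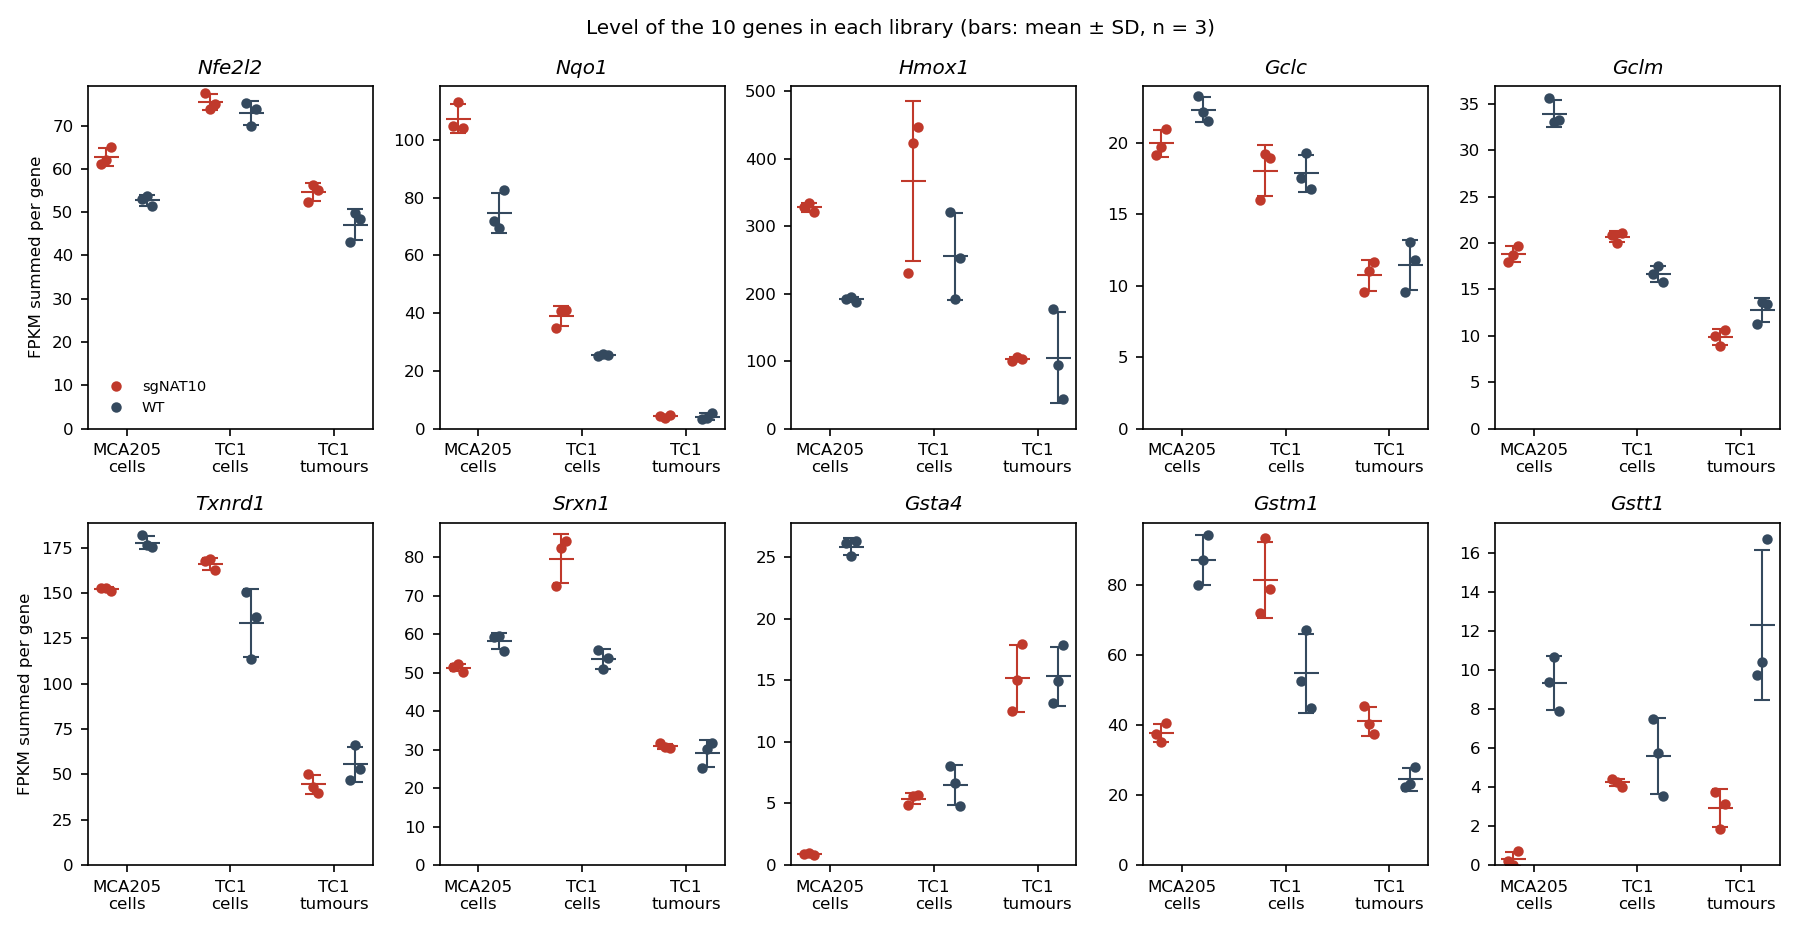
Level of each of the 10 genes in every library, as FPKM summed over transcripts (linear axes from 0), with sgNAT10 libraries in red beside WT libraries in blue for MCA205 cells, TC1 cells and TC1 tumours, and bars giving the mean ± SD of 3 libraries. In MCA205 cells the colours separate in all 10 panels, and Gsta4 and Gstt1 are close to 0 in the sgNAT10 libraries.

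Nfe2l2 (ENSMUSG00000015839, chr2:75675513-75704641 in mm10, minus strand) had 61.2, 62.1 and 65.2 FPKM in sgNAT10 MCA205 cells, against 53.1, 53.8 and 51.4 FPKM in WT MCA205 cells. Every sgNAT10 library lay above every WT library, by a small step of 1.25-fold (log2 change 0.32, SE 0.029, adjusted p = 0.000211). The deposited tables split the gene into 1 coding and 1 noncoding transcript. The noncoding one, ENSMUST00000152371, took 0.921 ± 0.371% of the gene's counts in sgNAT10 and 7.28 ± 0.627% in WT MCA205 cells (SD, n = 3 each), and its shares did not overlap between the groups. The coding transcript alone stood at 61.8 ± 2.02 FPKM in sgNAT10 and 46.5 ± 0.587 FPKM in WT MCA205 cells, so the step was wider for it than for the gene as a whole. These splits rest on the authors' assignment of reads and were not tested.

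In TC1 cells Nfe2l2 had 77.5, 73.9 and 75.1 FPKM in sgNAT10 libraries, against 75.3, 69.9 and 73.8 FPKM in WT libraries. The groups overlapped, with a log2 change of 0.017 (SE 0.057, adjusted p = 0.856). In tumours it had 52.3, 56.4 and 55.1 FPKM in sgNAT10, against 43.1, 49.9 and 48.4 FPKM in WT. The tumour groups did not overlap in FPKM, but edgeR, which works on counts and scales libraries differently, gave a log2 change of 0.10 (SE 0.096, adjusted p = 0.484). The noncoding transcript held 0.949 ± 0.382% in sgNAT10 and 2.01 ± 0.419% in WT TC1 cells, and 0.697 ± 0.222% against 0.659 ± 0.239% in tumours.

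**Figure D2:**
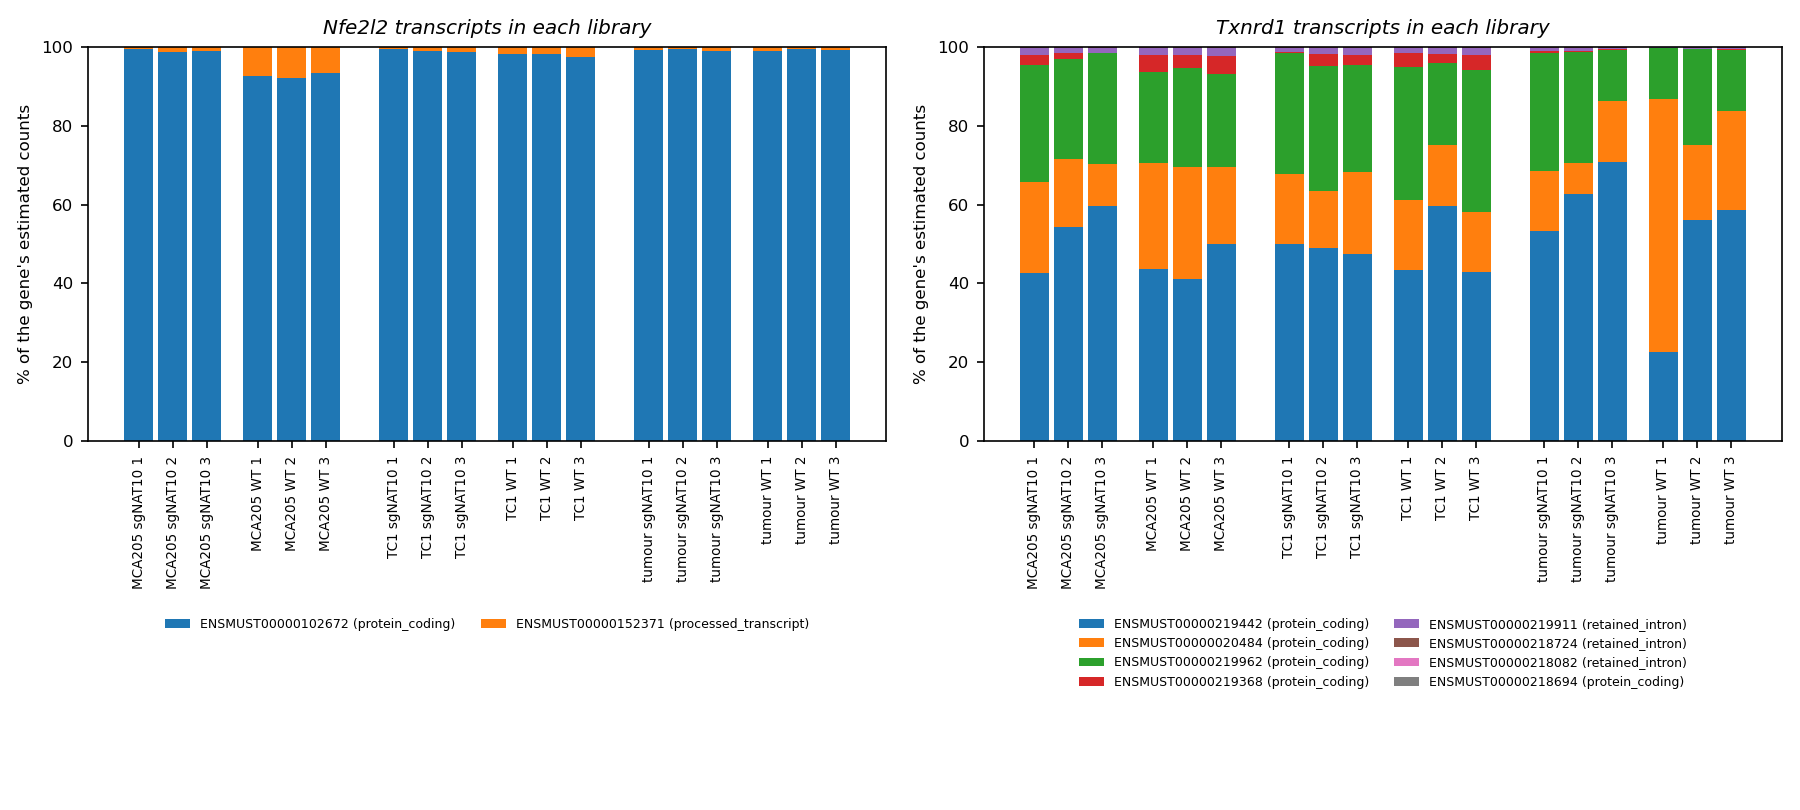
Share of the gene's estimated counts taken by each transcript of Nfe2l2 and of Txnrd1 in every library, stacked to 100%, with sgNAT10 libraries left of WT libraries in each table. The noncoding Nfe2l2 transcript is widest in WT MCA205 cells, between 6.60% and 7.84%, and the Txnrd1 transcripts vary widely within groups, most of all in WT tumours.

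Nqo1 (ENSMUSG00000003849, chr8:107388225-107403206, minus strand) encodes the quinone reductase that serves as the classical NRF2 target. Its level was 105, 113 and 104 FPKM in sgNAT10 MCA205 cells, against 71.8, 69.6 and 82.4 FPKM in WT MCA205 cells. In TC1 cells it was 35.0, 40.8 and 40.9 FPKM in sgNAT10, against 25.2, 26.0 and 25.5 FPKM in WT. In culture, all sgNAT10 libraries lay above all WT libraries of the same line. The rise was 1.45-fold in MCA205 cells (log2 change 0.53, SE 0.073, adjusted p = 0.00132) and 1.48-fold in TC1 cells (0.56, SE 0.072, adjusted p = 0.00119), and the test of the difference between the lines gave -0.086 (SE 0.11, adjusted p = 0.607). Tumours held far less, 4.31, 3.51 and 4.70 FPKM in sgNAT10 against 3.37, 3.70 and 5.36 FPKM in WT, and the groups overlapped (log2 change -0.082, SE 0.22, adjusted p = 0.816). The single annotated transcript of Nqo1 took all of its counts.

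Hmox1 (ENSMUSG00000005413, chr8:75093621-75100589, plus strand) encodes haem oxygenase, which opens the haem ring and which BACH1 represses. It had 328, 335 and 321 FPKM in sgNAT10 MCA205 cells, against 193, 195 and 187 FPKM in WT MCA205 cells. The groups were tight and far apart, a rise of 1.72-fold (log2 change 0.78, SE 0.035, adjusted p = 1.06e-05). In TC1 cells it had 231, 423 and 447 FPKM in sgNAT10, against 322, 193 and 252 FPKM in WT. These groups overlapped, because sgNAT10 library 1 was lower than 2 of the WT libraries, and the change of 0.48 was not called (SE 0.27, adjusted p = 0.223). That library stood apart from the other sgNAT10 TC1 libraries over all genes, and without it the log2 change of Hmox1 was 0.81 (adjusted p = 0.0262).

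In tumours Hmox1 was even among sgNAT10 libraries, at 99.9, 105 and 104 FPKM, and uneven among WT libraries, at 177, 93.8 and 44.3 FPKM. The sgNAT10 values lay inside the WT range, and the log2 change was -0.21 (SE 0.48, adjusted p = 0.785). Red blood cell markers, of which 4 of 5 were detected, summed to 57.5 to 95.8 FPKM in sgNAT10 tumours and to 385, 250 and 129 FPKM in WT tumours 1, 2 and 3, the same order as Hmox1 among the WT tumours. Macrophage markers, all 9 detected, summed to 989 to 1137 FPKM in sgNAT10 tumours. In WT tumours 1, 2 and 3 they summed to 1132, 1095 and 1483 FPKM, an order that Hmox1 did not share. The part of these cells in the spread of Hmox1 was not tested. With liver and intestine level as a covariate the change turned to 1.49 (adjusted p = 0.0278), a fit chosen after the data were seen.

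Glutamate-cysteine ligase makes the first and limiting step of glutathione synthesis from a catalytic subunit, encoded by Gclc, and a modifier subunit, encoded by Gclm. Gclc (ENSMUSG00000032350, chr9:77754535-77794485, plus strand) had 19.1, 19.7 and 21.0 FPKM in sgNAT10 MCA205 cells, against 23.3, 22.1 and 21.5 FPKM in WT MCA205 cells. The groups were separated by a narrow gap, a fall of 1.11-fold (log2 change -0.15, SE 0.044, adjusted p = 0.0315). That call was lost without WT 1 (adjusted p = 0.0634), without WT 3 (0.0559), without WT 1 and sgNAT10 2 (0.1499) and with no filter on low counts (0.114). In TC1 cells Gclc had 16.0 to 19.2 FPKM in sgNAT10 and 16.8 to 19.2 FPKM in WT, and in tumours 9.52 to 11.6 against 9.56 to 13.0 FPKM. Both pairs of groups overlapped, with log2 changes of -0.035 and -0.20 (SE 0.088 and 0.13, adjusted p = 0.795 and 0.323), and the TC1 cell value turned positive, between 0.013 and 0.037, with RLE size factors, library size alone, DESeq2 or limma.

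Gclm (ENSMUSG00000028124, chr3:122245557-122270732, plus strand) moved in opposite directions in the lines. It had 17.99, 18.8 and 19.7 FPKM in sgNAT10 MCA205 cells, against 35.6, 33.0 and 33.3 FPKM in WT MCA205 cells, a fall of 1.77-fold (log2 change -0.82, SE 0.046, adjusted p = 2.68e-05). In TC1 cells it had 20.9, 20.03 and 21.1 FPKM in sgNAT10, against 16.7, 17.5 and 15.9 FPKM in WT, a rise of 1.30-fold (log2 change 0.37, SE 0.062, adjusted p = 0.00356). In neither line did the groups overlap. Nor did the sgNAT10 libraries of MCA205 and TC1 cells overlap, with the limit that the lines may have been normalised separately. The effects differed by -1.25 on the log2 scale between MCA205 and TC1 cells (SE 0.072, adjusted p = 6.63e-07).

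Gclm fell in tumours, as in MCA205 cells. The levels were 10.02, 8.91 and 10.6 FPKM in sgNAT10 tumours, against 11.3, 13.7 and 13.4 FPKM in WT tumours, with no overlap. The fall was 1.46-fold (log2 change -0.55, SE 0.099, adjusted p = 0.0139), and the effect differed from that in cultured TC1 cells by -0.99 (SE 0.11, adjusted p = 7.49e-05). The tumour call was lost with limma on log2(FPKM + 1) (-0.34, adjusted p = 0.102), without WT 2 (0.0533), sgNAT10 1 (0.052) or sgNAT10 2 (0.0793), and with the liver and intestine covariate (0.106). Exons of Gclm overlap the unnamed models Gm17494 on the opposite strand and Gm6061 on the same strand, and how reads were divided among them is not stated.

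Txnrd1 (ENSMUSG00000020250, chr10:82833951-82897712, plus strand), the cytosolic thioredoxin reductase, was the second most abundant of the 10 genes after Hmox1 in the cultures. It had 153, 153 and 151 FPKM in sgNAT10 MCA205 cells, against 182, 176 and 175 FPKM in WT MCA205 cells. In TC1 cells it had 168, 168 and 162 FPKM in sgNAT10, against 151, 114 and 137 FPKM in WT. The groups of each line were apart, and the order was reversed between the lines. The log2 change was -0.24 in MCA205 cells (SE 0.036, adjusted p = 0.00204) and 0.28 in TC1 cells (SE 0.084, adjusted p = 0.0392), a difference of -0.56 (SE 0.10, adjusted p = 0.00147). The TC1 call was lost without WT 2 (log2 change 0.24, adjusted p = 0.0824), without sgNAT10 2 (0.0503), with no filter (0.0688) and with the liver and intestine covariate (0.0599).

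In tumours Txnrd1 had 50.4, 43.2 and 39.6 FPKM in sgNAT10, against 47.0, 66.3 and 53.1 FPKM in WT. The groups overlapped, and the log2 change of -0.46 just missed the threshold (SE 0.13, adjusted p = 0.0508), while DESeq2 called it (-0.45, adjusted p = 0.0136), as did edgeR without WT 3 (-0.53, adjusted p = 0.0333). The effect differed from that in cultured TC1 cells by -0.80 (SE 0.16, adjusted p = 0.00359). The tables list 8 transcripts of Txnrd1, 5 of them coding. The largest, ENSMUST00000219442, took 52.2 ± 8.71% of the gene's counts in sgNAT10 and 44.9 ± 4.52% in WT MCA205 cells, 48.8 ± 1.20% against 48.6 ± 9.49% in TC1 cells, and 62.3 ± 8.71% against 45.8 ± 20.1% in tumours. Its shares overlapped between the groups in every table. Smaller transcripts did separate: in MCA205 cells ENSMUST00000219962 took 25.4 to 29.7% in sgNAT10 and 23.0 to 25.02% in WT, and ENSMUST00000219368 took 0.204 to 2.60% against 3.29 to 4.64%. In tumours ENSMUST00000020484 took 7.93 to 15.4% in sgNAT10 and 19.1 to 64.0% in WT. These shares were not tested either.

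Srxn1 (ENSMUSG00000032802, chr2:152105516-152111376, plus strand) encodes sulfiredoxin, which restores over-oxidised peroxiredoxins. It had 51.4, 52.3 and 50.3 FPKM in sgNAT10 MCA205 cells, against 59.2, 59.4 and 55.7 FPKM in WT MCA205 cells. In TC1 cells it had 72.4, 82.3 and 84.3 FPKM in sgNAT10, against 55.9, 50.98 and 53.8 FPKM in WT. Again the groups of each line were apart and in opposite order, with a log2 change of -0.17 in MCA205 cells (SE 0.038, adjusted p = 0.01) and 0.53 in TC1 cells (SE 0.070, adjusted p = 0.00139). The difference between the lines was -0.75 (SE 0.087, adjusted p = 7.18e-05). In tumours Srxn1 had 31.6, 30.6 and 30.4 FPKM in sgNAT10, within the WT range of 25.1 to 31.7 FPKM (log2 change -0.017, SE 0.087, adjusted p = 0.909), and the effect differed from that in cultured TC1 cells by -0.61 (SE 0.11, adjusted p = 0.0015).

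**Figure D3:**
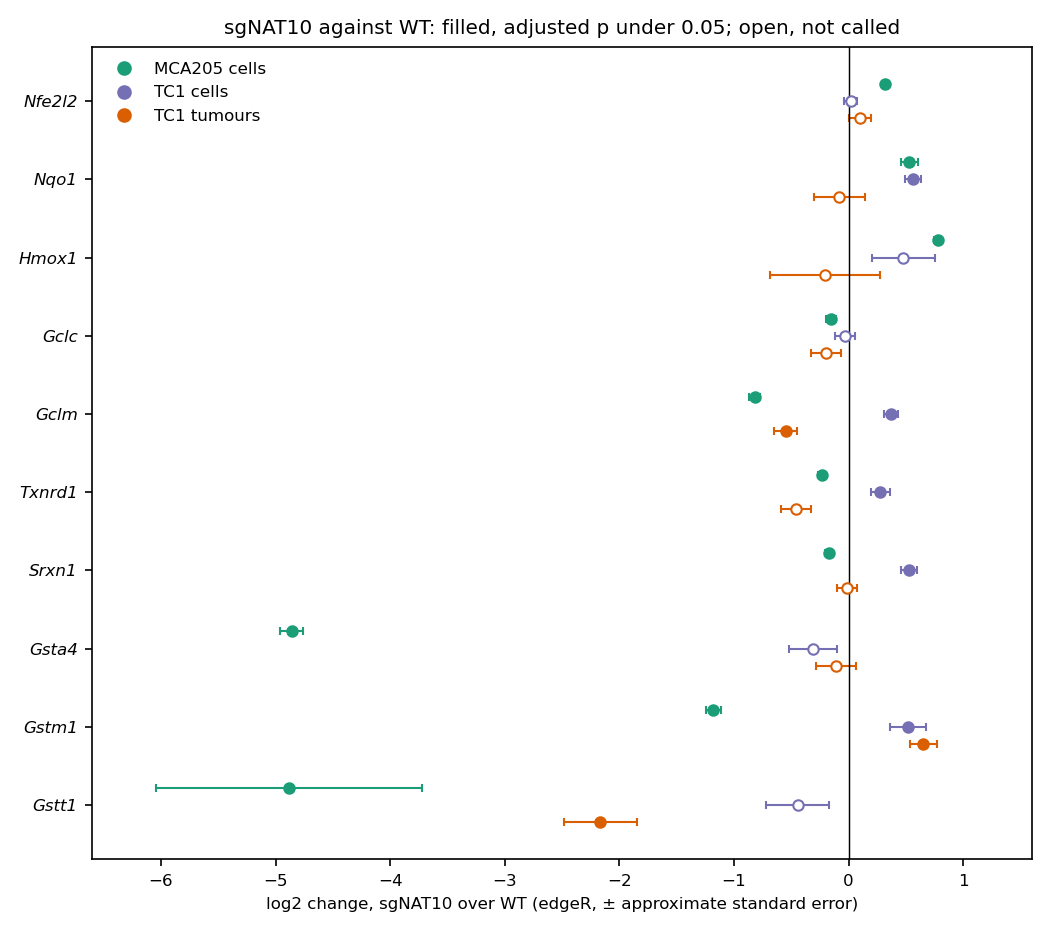
Log2 change of each gene, sgNAT10 over WT, with its approximate standard error, for MCA205 cells (green), TC1 cells (purple) and TC1 tumours (orange), where filled points passed an adjusted p of 0.05 in edgeR. Gclm, Txnrd1 and Srxn1 lie left of 0 in MCA205 cells and right of 0 in TC1 cells, and Gsta4 and Gstt1 in MCA205 cells lie near -4.9.

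In MCA205 cells the 3 glutathione transferase genes held the largest changes of the 10. Gsta4 (ENSMUSG00000032348, chr9:78182774-78209349, plus strand) encodes an alpha class enzyme that acts on 4-hydroxynonenal, a product of lipid peroxidation. It had 0.865, 0.948 and 0.842 FPKM in sgNAT10 MCA205 cells, against 26.2, 25.1 and 26.4 FPKM in WT MCA205 cells. The sgNAT10 values rest on 49, 81 and 52 estimated counts per library and the WT values on 1654, 1657 and 1501. The fall of 29.0-fold (log2 change -4.86, SE 0.098, adjusted p = 4.71e-07) ranked 200 by size among the 18101 genes tested in MCA205 cells.

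Gsta4 was not called in either TC1 table. Cultured TC1 cells had 4.90, 5.61 and 5.67 FPKM in sgNAT10, against 8.06, 6.63 and 4.82 FPKM in WT, with overlap (log2 change -0.31, SE 0.21, adjusted p = 0.301). Tumours had 12.5, 15.0 and 17.97 FPKM in sgNAT10, against 13.2, 14.9 and 17.9 FPKM in WT, nearly the same 3 values (log2 change -0.11, SE 0.17, adjusted p = 0.681). The effects in MCA205 and TC1 cells differed by -4.61 (SE 0.23, adjusted p = 2.16e-07).

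Gstt1 (ENSMUSG00000001663, chr10:75783813-75798584, minus strand), a theta class transferase, had 0.226, 0 and 0.724 FPKM in sgNAT10 MCA205 cells, against 9.41, 10.7 and 7.92 FPKM in WT MCA205 cells. The sgNAT10 values are 14, 0 and 48 estimated counts and the WT values 635, 748 and 480. In sgNAT10 library 2, 3 counts would have been 0.0334 FPKM, the upper limit that a count of 0 allows by counting error alone. The groups were far apart, but the spread among the few sgNAT10 counts made the estimate wide, a log2 change of -4.89 with an SE of 1.16 (adjusted p = 0.0141). Leaving out 1 library moved the log2 change between -6.46 (without sgNAT10 3) and -4.29 (without sgNAT10 2), and the call was lost without sgNAT10 1 (-4.72, adjusted p = 0.0646). With all libraries, the difference from the effect in TC1 cells was -4.49 (SE 1.23, adjusted p = 0.0158).

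In tumours Gstt1 fell again, to 3.73, 1.83 and 3.15 FPKM in sgNAT10, against 9.77, 10.4 and 16.7 FPKM in WT. The groups did not overlap, and the fall was 4.49-fold (log2 change -2.17, SE 0.32, adjusted p = 0.00803). With the liver and intestine covariate the log2 change was -2.41 (adjusted p = 0.035). That fit cannot separate the marker level from sgNAT10, because the level did not overlap between the tumour groups. Cultured TC1 cells had 4.42, 4.27 and 4.03 FPKM in sgNAT10, inside the WT spread of 7.49, 5.76 and 3.56 FPKM, and were not called (log2 change -0.45, SE 0.27, adjusted p = 0.252). The effect in tumours differed from that in the cultured cells by -1.79 (SE 0.44, adjusted p = 0.0116). The tumour groups also differed in markers of other cells, with endothelial markers (6 of 6 detected) at 65.0 to 75.9 FPKM in sgNAT10 and 34.5 to 46.7 FPKM in WT, skeletal muscle markers (6 of 6) at 85.5 to 131 against 20.4 to 25.6 FPKM, adipocyte markers (5 of 5) at 54.4 to 77.2 against 21.4 to 39.0 FPKM, and liver markers (8 of 8) at 440 to 488 against 1.38 to 183 FPKM. Albumin, the defining liver marker, was at 0 in WT tumour 1. The part of endothelial, muscle and fat cells in the tumour changes of Gstt1, Gstm1 and Gclm was not tested.

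Gstm1 (ENSMUSG00000058135, chr3:108012255-108017973, minus strand), a mu class enzyme, was called in all 3 tables and in different directions. It had 37.4, 35.3 and 40.5 FPKM in sgNAT10 MCA205 cells, against 80.0, 87.1 and 94.3 FPKM in WT MCA205 cells, a fall of 2.26-fold (log2 change -1.18, SE 0.068, adjusted p = 3.08e-05). In TC1 cells it had 72.1, 93.5 and 78.8 FPKM in sgNAT10, against 52.6, 67.1 and 44.9 FPKM in WT, a rise of 1.43-fold (0.52, SE 0.16, adjusted p = 0.0401). In tumours it had 45.5, 40.4 and 37.4 FPKM in sgNAT10, against 22.2, 23.1 and 28.1 FPKM in WT, a rise of 1.57-fold (0.65, SE 0.12, adjusted p = 0.0147). No pair of groups overlapped, and the effects in the lines differed by -1.76 (SE 0.18, adjusted p = 3.43e-05).

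The call for Gstm1 in TC1 cells was lost without WT 1 (adjusted p = 0.0725), WT 3 (0.0528) or sgNAT10 2 (0.0694). The call in tumours was lost without WT 2 (0.0559), sgNAT10 1 (0.0599) or sgNAT10 2 (0.0675) and with the liver and intestine covariate (0.63, adjusted p = 0.114). Of the 50-base windows in the longest coding transcript of Gstm1, 23.1% also occur in other genes, most in the pseudogene Gstm2-ps1 (17.3%), so the division of reads among these copies is uncertain. The longest coding transcripts of the other 9 genes shared at most 0.776% with another gene.

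All 3 transferases are also liver genes, and the level of liver and intestine markers differed between libraries of a group. In MCA205 cells both sets of markers were lowest in sgNAT10 2 and WT 1, which is only 1 library of each group. Between these libraries Gsta4 stood at 0.948 against 26.2 FPKM, Gstm1 at 35.3 against 80.0 FPKM and Gstt1 at 0 against 9.41 FPKM. With the marker level as a covariate the log2 changes in MCA205 cells were -4.88, -1.16 and -5.04 (adjusted p = 1.22e-07, 2.81e-06 and 0.00193). In TC1 cells, where the markers summed to at least 703 FPKM in every library, they were -0.31, 0.51 and -0.45 (adjusted p = 0.261, 0.0233 and 0.16). The part of liver and intestine RNA in these changes was not tested beyond these fits.

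**Figure D4:**
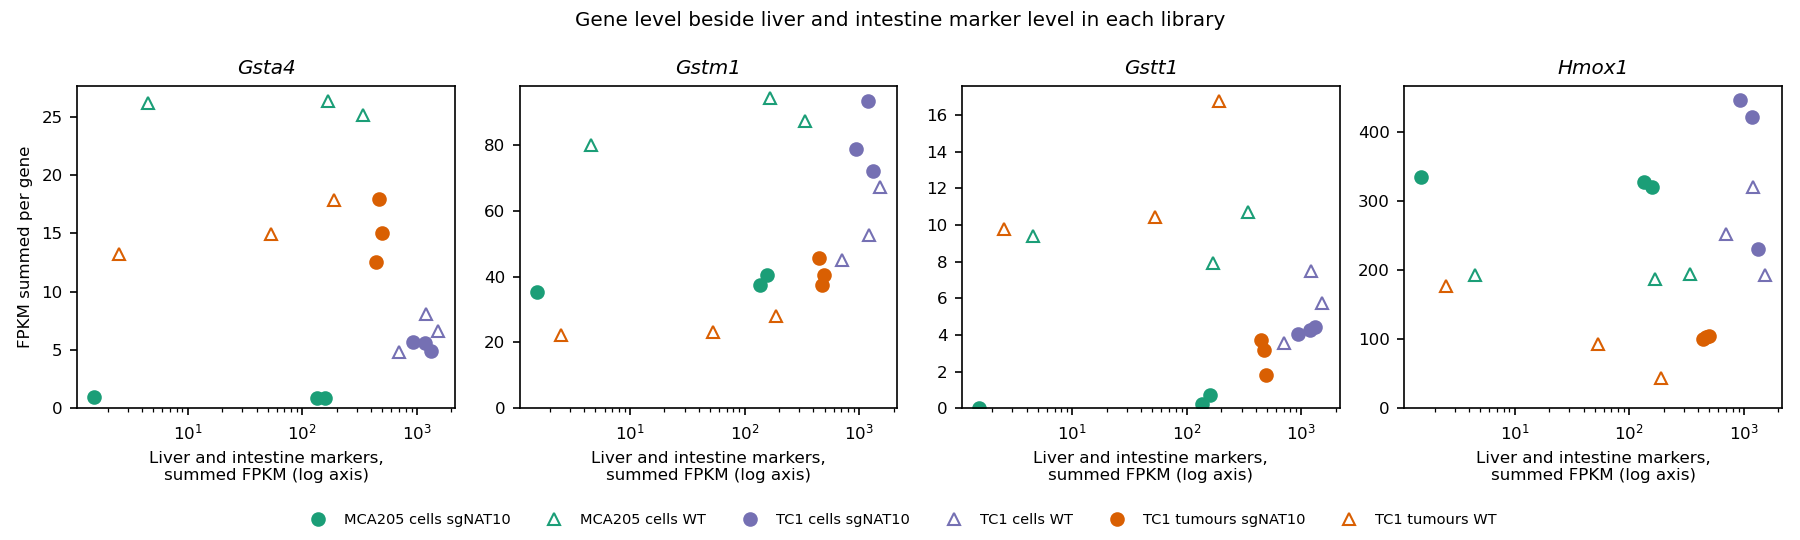
FPKM of Gsta4, Gstm1, Gstt1 and Hmox1 in each library against the summed FPKM of 16 liver and intestine markers (log axis), with filled circles for sgNAT10, open triangles for WT, and colours for MCA205 cells, TC1 cells and TC1 tumours. The sgNAT10 MCA205 libraries stay near the bottom for Gsta4 and Gstt1 at marker levels of 1.54, 136 and 158 FPKM, while the sgNAT10 tumours sit to the right of the WT tumours.

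Beyond the 3 genes, 4 other glutathione transferase genes rose and 3 fell of 20 tested in MCA205 cells, 3 rose and 2 fell of 22 in TC1 cells, and 2 rose and 1 fell of 22 in tumours. Their median log2 changes were -0.11, -0.23 and 0.43, beside -0.027, -0.085 and 0.016 for all genes. The share called was 35.0%, 22.7% and 13.6%, below the 40.6%, 37.9% and 17.4% of all genes. The mu class was split in MCA205 cells, where Gstm2 rose to 60.7 ± 0.753 FPKM in sgNAT10, against 36.0 ± 0.706 FPKM in WT, and Gstm5 fell to 10.7 ± 0.795 FPKM, against 24.8 ± 1.31 FPKM (SD, n = 3; adjusted p = 8.97e-06 and 5.34e-05). In TC1 cells Gstp1, the abundant pi class gene, rose to 272 ± 15.7 FPKM in sgNAT10, against 206 ± 12.05 FPKM in WT (adjusted p = 0.00522). In tumours the membrane-bound transferase gene Mgst1 rose to 51.5 ± 1.88 FPKM in sgNAT10, against 13.6 ± 4.01 FPKM in WT (adjusted p = 0.00243), and Gstm5 fell to 7.97 ± 0.798 FPKM, against 19.0 ± 2.19 FPKM (adjusted p = 0.00639). Whether these related genes share reads was not checked. Liver markers stood at 440 to 488 FPKM in sgNAT10 tumours and 1.38 to 183 FPKM in WT tumours. The part of liver transcripts in the tumour changes of these other transferases, Mgst1 among them, was not tested.

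**Figure D5:**
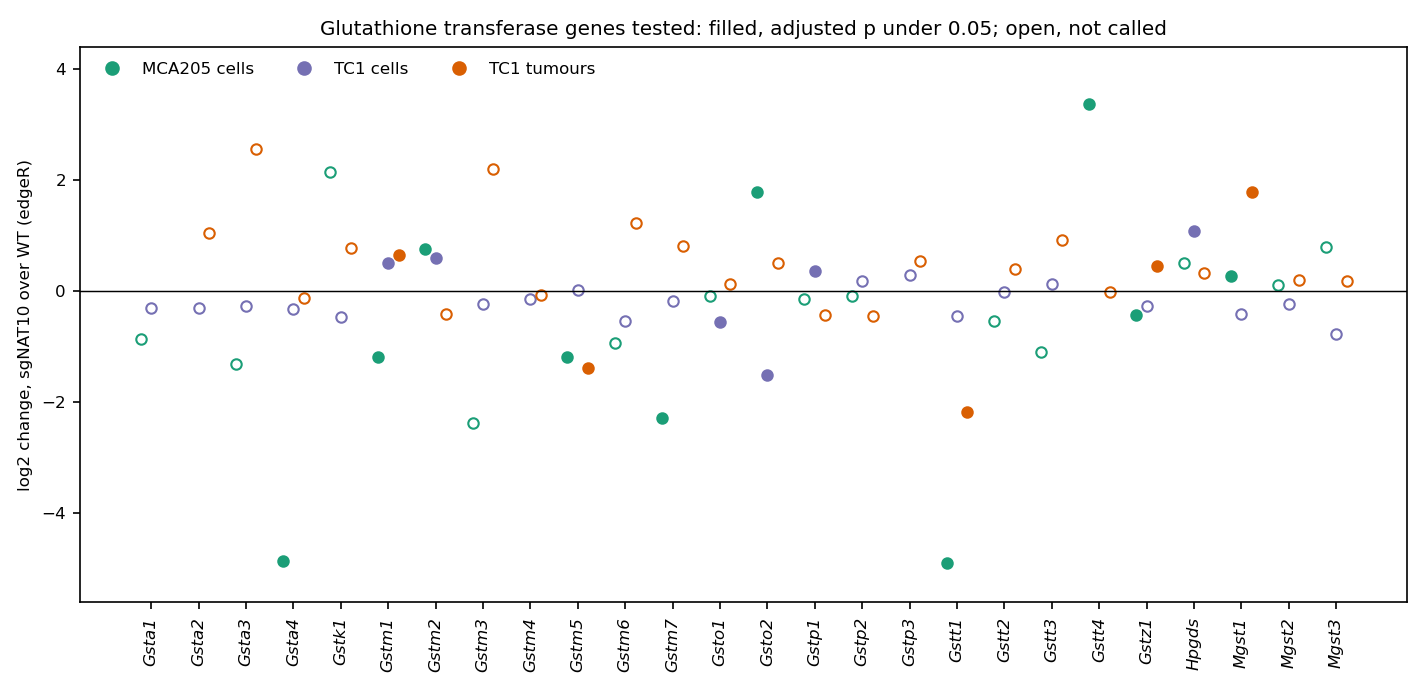
Log2 change, sgNAT10 over WT, of every glutathione transferase gene tested, for MCA205 cells (green), TC1 cells (purple) and TC1 tumours (orange), where filled points passed an adjusted p of 0.05 in edgeR. The family did not move as one, and Gsta4 and Gstt1 in MCA205 cells are the lowest points, near -4.9.

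Genes that control NRF2 were mostly higher or not called in MCA205 cells and mixed in TC1 cells. Of 9 such genes, 5 rose in sgNAT10 MCA205 cells and the other 4 were not called (median log2 change 0.24). Sqstm1, whose protein sequesters KEAP1, reached 268 ± 4.13 FPKM in sgNAT10, against 174 ± 3.999 FPKM in WT, and Mafk, a small MAF partner, 24.9 ± 0.407 against 16.97 ± 0.573 FPKM (adjusted p = 3.17e-05 and 7.14e-05). In TC1 cells 2 rose and 5 fell (median -0.36), and Sqstm1 and Mafk were among those that fell. Sqstm1 stood at 175 ± 29.7 FPKM in sgNAT10 and 256 ± 31.8 FPKM in WT TC1 cells (edgeR adjusted p = 0.0152). Mafk stood at 10.4 ± 0.791 against 15.5 ± 2.34 FPKM (edgeR adjusted p = 0.00695). Bach1 was at 7.44 ± 0.833 FPKM in sgNAT10 and 4.74 ± 0.0536 FPKM in WT, and Cul3 at 27.4 ± 1.20 against 37.3 ± 1.57 FPKM (adjusted p = 0.00148 and 0.00139). Rbx1, the other gene that rose, was at 43.2 ± 1.69 FPKM in sgNAT10 and 27.4 ± 0.867 FPKM in WT (adjusted p = 0.000509). Nfe2l1, the related factor, fell to 33.8 ± 0.966 FPKM in sgNAT10 TC1 cells, against 89.3 ± 11.4 FPKM in WT TC1 cells (adjusted p = 5.09e-05). In tumours none of the 9 was called by edgeR (median 0.01), while 1 was higher and 1 lower at an unadjusted p under 0.05, and DESeq2 called 1 higher and 1 lower. The share called by edgeR was 55.6% in MCA205 cells, 77.8% in TC1 cells and 0% in tumours, beside 40.6%, 37.9% and 17.4% of all genes.

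Further NRF2 targets, not among the 10, were counted in the same way. In MCA205 cells 2 rose and 9 fell of 15 tested (median -0.26), and in TC1 cells 6 rose and 2 fell of 16 (median 0.12). The share called was 73.3% in MCA205 cells, above the 40.6% of all genes, and 12.5% in tumours, below the 17.4% of all genes. For TC1 cells the share also lay above the 37.9% of all genes. Of 4 pentose phosphate pathway genes on this list, 3 fell in MCA205 cells (Tkt, G6pdx and Pgd) and Taldo1 rose. Pgd stood at 111 ± 2.96 FPKM in sgNAT10 and 133 ± 0.784 FPKM in WT (adjusted p = 0.00112) and is named after its value was seen. Tkt stood at 89.0 ± 5.27 FPKM in sgNAT10 and 144 ± 3.44 FPKM in WT, G6pdx at 48.9 ± 1.38 against 69.7 ± 2.47 FPKM, and Taldo1 at 197 ± 4.08 against 114 ± 1.54 FPKM (adjusted p = 4.54e-05, 6.32e-05 and 7.15e-06). Of the same 4 genes, Pgd and G6pdx were called higher in TC1 cells (edgeR log2 change 0.77 and 0.32, adjusted p = 0.00068 and 0.00756). Tkt and Taldo1 were not called there. In TC1 cells the carbonyl reductase gene Cbr3 rose to 32.6 ± 4.03 FPKM in sgNAT10, against 9.53 ± 1.62 FPKM in WT, whereas Slc7a11, the cystine importer that feeds glutathione synthesis, fell to 1.25 ± 0.0823 FPKM, against 7.64 ± 3.41 FPKM (adjusted p = 0.000296 and 0.000688). In tumours 1 rose and 1 fell of 16 (median -0.13), the oxidase gene Aox1 at 4.10 ± 0.677 against 1.42 ± 0.729 FPKM and Tkt at 42.7 ± 2.25 against 67.1 ± 5.67 FPKM (adjusted p = 0.0322 and 0.0113).

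Around Hmox1, 2 haem and iron genes rose and 2 fell of 10 in MCA205 cells, and 4 of 10 rose in TC1 cells (medians -0.094 and 0.42). That is 40.0% called in each line and 0% in tumours, beside 40.6%, 37.9% and 17.4% of all genes in MCA205 cells, TC1 cells and tumours. Fth1, the ferritin heavy chain that stores the iron released from haem, rose to 2549 ± 77.4 FPKM in sgNAT10 MCA205 cells, against 1538 ± 50.2 FPKM in WT MCA205 cells (adjusted p = 6.42e-05). Alas1, the first enzyme of haem synthesis, fell to 8.41 ± 0.368 FPKM in sgNAT10 MCA205 cells, against 17.2 ± 1.25 FPKM in WT, and rose to 27.3 ± 0.866 FPKM in sgNAT10 TC1 cells, against 16.2 ± 0.771 FPKM in WT (adjusted p = 1.89e-05 and 0.000322). Hmox2, the constitutive haem oxygenase gene, rose to 37.3 ± 2.04 FPKM in sgNAT10 TC1 cells, against 22.7 ± 1.79 FPKM in WT TC1 cells (adjusted p = 0.000306). In tumours edgeR called none of the 10 (median -0.18), with 2 lower at an unadjusted p under 0.05 and 1 called lower by DESeq2.

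Around the ligase genes, 4 genes of glutathione synthesis and use rose and 7 fell of 19 in MCA205 cells, 6 rose and 3 fell of 20 in TC1 cells, and 2 rose and 1 fell of 20 in tumours (medians -0.098, 0.028 and -0.15). That is 57.9%, 45.0% and 15.0% called, beside 40.6%, 37.9% and 17.4% of all genes. The gene called lower in tumours was Glo1 (edgeR log2 change -0.56, adjusted p = 0.0121). Its FPKM went the other way, 11.4 ± 1.94 in sgNAT10 against 8.81 ± 0.398 in WT, so its direction is uncertain. Chac1, an enzyme that breaks glutathione down, rose to 173 ± 3.45 FPKM in sgNAT10 MCA205 cells, against 92.2 ± 4.96 FPKM in WT, and fell to 8.07 ± 0.731 FPKM in sgNAT10 TC1 cells, against 130 ± 34.8 FPKM in WT (adjusted p = 1.89e-05 and 3.44e-05). Gsr, which reduces oxidised glutathione, rose to 40.7 ± 0.990 FPKM in sgNAT10 TC1 cells, against 29.7 ± 0.563 FPKM in WT (adjusted p = 0.00159). Glrx, a glutaredoxin gene, rose to 28.3 ± 1.99 FPKM in sgNAT10 MCA205 cells, against 19.6 ± 0.328 FPKM in WT, and to 44.6 ± 4.66 FPKM in sgNAT10 tumours, against 28.6 ± 5.05 FPKM in WT tumours (adjusted p = 0.000388 and 0.0286). Gpx8, a peroxidase of the endoplasmic reticulum, fell to 56.9 ± 3.11 FPKM in sgNAT10 MCA205 cells, against 82.9 ± 4.80 FPKM in WT, and rose to 166 ± 24.7 FPKM in sgNAT10 TC1 cells, against 80.7 ± 10.7 FPKM in WT (adjusted p = 0.000369 and 0.000809).

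Around Txnrd1 and Srxn1, 3 thioredoxin and peroxiredoxin genes rose and 8 fell of 14 in MCA205 cells, 3 rose and 2 fell in TC1 cells, and 3 rose and 1 fell in tumours (medians -0.31, 0.0094 and -0.14). That is 78.6%, 35.7% and 28.6% called, beside 40.6%, 37.9% and 17.4% of all genes. In MCA205 cells the mitochondrial peroxiredoxin genes were split, with Prdx5 at 90.5 ± 4.48 FPKM in sgNAT10 and 54.5 ± 4.01 FPKM in WT, and Prdx3 at 46.7 ± 1.46 against 64.2 ± 2.30 FPKM (adjusted p = 0.000179 and 0.000256). The sister reductases parted in TC1 cells, where mitochondrial Txnrd2 rose to 14.1 ± 0.473 FPKM in sgNAT10, against 8.77 ± 0.562 FPKM in WT, and Txnrd3 fell to 3.28 ± 0.293 FPKM, against 9.56 ± 0.263 FPKM (adjusted p = 0.00194 and 5.62e-05). In tumours Txnip, the thioredoxin inhibitor, rose to 66.7 ± 8.69 FPKM in sgNAT10, against 29.6 ± 11.8 FPKM in WT, and Prdx4 to 241 ± 20.8 FPKM, against 135 ± 8.22 FPKM (adjusted p = 0.0202 and 0.0151).

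Levels can also be set side by side across the 6 groups, with the limit that the tables may have been normalised separately, so no test is given. Nqo1 ran from 107 FPKM in sgNAT10 MCA205 cells through 74.6 FPKM in WT MCA205 cells, 38.9 FPKM in sgNAT10 TC1 cells and 25.5 FPKM in WT TC1 cells to 4.17 and 4.14 FPKM in sgNAT10 and WT tumours, and only the tumour groups overlapped. WT tumours held 6.17-fold less Nqo1, 2.43-fold less Hmox1 and 2.41-fold less Txnrd1 than WT TC1 cells in culture, but 2.36-fold more Gsta4 and 2.20-fold more Gstt1. Gclm ran from WT MCA205 cells (34.0 FPKM) through sgNAT10 TC1 cells (20.7), sgNAT10 MCA205 cells (18.8), WT TC1 cells (16.7) and WT tumours (12.8) to sgNAT10 tumours (9.86), with no overlap between neighbours. For Gclc, Hmox1 and Gstm1 several neighbours in the order overlapped, so that the order itself is loose.

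Likeness across the 18 libraries was measured by Pearson's r of log2(FPKM + 1) among 8895 named genes with a mean of at least 5 FPKM, as a description of points that share tables and groups. Txnrd1 was most like Tlnrd1 (r = 0.99) and Srxn1 most like Tmem63b (0.98). Nfe2l2 was closest to Nfx1 (0.97), Gclm to Lbr (0.97), Nqo1 to Gas2l3 (0.96) and Gclc to Stil (0.96). Gstt1 was closest to Rassf3 (0.96), Gsta4 to Taf1b (0.96), Hmox1 to Ier3 (0.94) and Gstm1 to Ptdss2 (0.93). None of the 10 genes had another of the 10 among its 3 closest.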

How the data were processed

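RNA-seq of 18 mouse libraries was read from 3 tables, each with 6 libraries. The authors deposited FPKM values and estimated counts per transcript, per the file headers. Tools listed in the submitters' processing notes are Bowtie2, featureCounts, Trim Galore and FastQC, with mm10 as the build. For the deposited FPKM values and counts, neither the program nor the strand setting is stated in the sources used here. Columns headed KO were matched to the sgNAT10 samples by their titles, and 0 columns lacked a sample.

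Transcripts were summed per gene identifier. The summed estimated counts were tested with edgeR 4.0.16 (quasi-likelihood, TMM, filterByExpr), sgNAT10 against WT within each table. Benjamini-Hochberg adjustment ran over all genes tested, with a threshold of 0.05. Standard errors were derived from the F statistic and are approximate. Differences of effects were contrasts over 12 libraries. The script was tested on simulated data with 200 changed genes. Replicates were separate libraries: the lowest chi-square ratio of a pair was 11.0 times the sampling noise. Alternatives were DESeq2 1.42.0, limma 3.58.1 on log2(FPKM + 1) or log2(FPKM + 0.1) for genes with 1 FPKM in 3 libraries, other scalings and filters, the replicate number as a block, each library left out, and a liver and intestine covariate, which for TC1 cells and tumours was chosen after seeing the data.

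The 10 genes and all lists were chosen with earlier results of these data known. The genes named are these 10, from each list and comparison up to 2 called higher and 2 called lower with the smallest p, of which a selection is given, and the genes most alike across libraries. Coordinates are in mm10, and promoter sequences are from RefSeq (GRCm38.p6).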

Additional observations from a re-analysis of the deposited data

Results flagged for a closer look

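The effect of sgNAT10 differed between MCA205 cells and TC1 cells for 7 of the 10 genes by the edgeR test of the difference itself, beside 36% of all genes tested. The difference, MCA205 minus TC1 on the log2 scale, was 0.25 for Nfe2l2, -1.25 for Gclm, -0.56 for Txnrd1 and -0.75 for Srxn1 (adjusted p = 0.0175, 6.63e-07, 0.00147 and 7.18e-05). It was -4.61 for Gsta4, -1.76 for Gstm1 and -4.49 for Gstt1 (adjusted p = 2.16e-07, 3.43e-05 and 0.0158).

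The effect differed between TC1 tumours and TC1 cells in culture for 5 of the 10 genes, beside 28.2% of all genes tested. The difference, tumours minus cells, was -0.71 for Nqo1, -0.99 for Gclm, -0.80 for Txnrd1, -0.61 for Srxn1 and -1.79 for Gstt1 (adjusted p = 0.0244, 7.49e-05, 0.00359, 0.0015 and 0.0116). The call for Nqo1 was lost with library size alone (-0.58, adjusted p = 0.0843), with limma on log2(FPKM + 0.1) (-0.57, 0.0777) and in 6 of the 12 fits that left out 1 library. Those were the fits without TC1 cells WT 1 (0.0542), sgNAT10 2 (0.0576) or sgNAT10 3 (0.0577), and without tumours WT 3 (-0.48, 0.0749), sgNAT10 1 (0.0687) or sgNAT10 2 (-0.54, 0.102).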

How the results depend on the processing

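In TC1 cells Gclc turned positive with RLE size factors or DESeq2 (0.037), library size alone or limma (0.013), no filter (0.022) and a filter of 1 CPM (0.032). In tumours, signs turned for Nqo1 (library size alone 0.025; limma 0.022 and 0.030), Srxn1 (library size alone 0.097; 1 CPM 0.018; limma 0.094 and 0.097), Gsta4 (library size alone 0.0018) and Hmox1 (limma 0.19; covariate 1.49). The cause was not tested.

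Leaving out 1 library gave 3 to 6 genes called higher in TC1 cells, and 0 to 1 higher and 1 to 3 lower in tumours, with 1 lower and 0 higher without WT 2, sgNAT10 1 or sgNAT10 2. Log2 changes that turned spanned 0.019 to 0.13 for Gclc in TC1 cells, and in tumours -0.60 to 0.53 for Hmox1, -0.20 to 0.073 for Nqo1, -0.039 to 0.0048 for Srxn1 and -0.27 to 0.0098 for Gsta4. Differences of effects that turned spanned -0.15 to 0.0062 for Nqo1 between the lines, and between tumours and TC1 cells -0.046 to 0.30 for Gsta4, -0.10 to 0.19 for Gstm1, -1.06 to 0.022 for Hmox1 and -0.010 to 0.099 for Nfe2l2.

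Same-numbered libraries correlated between -0.48 and 0.16, and differently numbered ones between -0.43 and 0.66. With 3 libraries per group, these values do not settle whether the numbers pair the libraries. With the number as a block, 3 genes were called higher and 5 lower in MCA205 cells, where Gclc (adjusted p = 0.0945) and Gstt1 (-5.68, adjusted p = 0.0588) were lost, 4 higher in TC1 cells, and 0 higher and 1 lower in tumours, where Hmox1 stood at 0.075. For differences of effects, the block gave 1 higher and 5 lower between the lines, and 5 lower between tumours and TC1 cells.

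In tumours both limma fits and the covariate left 1 gene called lower. Over all tumour genes, calls were 1473 higher and 1870 lower, against 870 higher with no filter, 1223 lower with library size alone, 1240 lower with limma on log2(FPKM + 0.1), 2406 higher with DESeq2, 360 and 476 with the block, and 184 and 296 with the covariate. Library size alone moved the tumour median of all genes to 0.13, against 0.016. For TC1 cells that median was -0.085 with TMM, -0.038 with library size alone and -0.012 with RLE size factors. Depth limits Gstt1 in sgNAT10 MCA205 cells, at 14, 0 and 48 counts.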
